A study of Bos taurus with 34 samples.

Results

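Apolipoproteins are the proteins that wrap lipid into lipoprotein particles, and MTTP is the transfer protein that loads lipid onto apolipoprotein B. The 10 genes described here are APOA1, APOA2, APOA4, APOA5, APOB, APOC3, APOE, APOH, APOM and MTTP. They were taken by symbol from the authors' deposited comparison of slick with free cattle, which holds 14161 genes, and by the Ensembl identifier given there from the raw count tables of 27607 genes. All 10 were found in each table. The hepatocyte builds very low density lipoprotein around APOB with the help of MTTP, and releases APOA1 as the start of high density lipoprotein. The smaller apolipoproteins move between particles in plasma and decide how fast lipases and receptors act on them. Ruminant liver is known for a slow export of triglyceride in these particles.

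The study sequenced liver RNA of Senepol cattle, as the labels name the breed, with 0, 1 or 2 copies of SLICK1, a truncating allele of the prolactin receptor gene PRLR that gives a short coat. The comparison used here is the one of the TruSeq experiment, between daughters of the slick sires Blanco and Lone Ranger. SLICK daughters carried 1 copy (10 samples, 5 by each sire) and FREE daughters carried 0 copies (8 samples, 7 by Lone Ranger and 1 by Blanco). A further 16 samples of a SMARTer experiment, 5 with 1 copy (S1) and 11 with 2 copies (S2), were not analysed here. Genotype and sire are therefore unevenly crossed, and whether the authors' model included sire is not stated in the sources used here. The labels give no age.

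The tables name their libraries by animal numbers that occur in no sample label. Values of single animals were therefore not used, and each result below rests on the authors' value over the compared libraries. An approximate standard error (SE) and 95% interval were computed from the authors' fold change and F statistic, with the 18.7 denominator degrees of freedom that F and p imply. A positive log2 fold change is read from the name of the table as higher in SLICK. The tissue label was checked against 16 secretory proteins of hepatocytes. All 16 were in the authors' deposited table, with averages of 8.86 to 15.9 log2 CPM (read counts scaled to the size of the library), the highest being albumin (ALB). Liver pieces are bulk samples, in which fewer cells of a type and less RNA per cell cannot be told apart.

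None of the 10 genes passed the authors' adjusted p of 0.05 between SLICK and FREE, against 0.501% of all genes in that table (0.0918% higher and 0.410% lower). An unadjusted p under 0.05 was listed for 3 of the 10 (APOC3, APOH and APOA5) in the authors' deposited table, all with higher values in SLICK, against 7.22% of all genes higher and 8.79% lower. By sign, 9 of the 10 were positive and APOA1 was negative, against 48.2% of all genes positive. Subtracting the median of genes with at least 10 log2 CPM, a centre chosen after the values were seen, gave 4 positive and 6 negative. Of the members, 5 averaged that level, and APOM and MTTP, which turned negative, lie below it. The median of genes at their level, 5 to under 10 log2 CPM, was 0.04. The median log2 fold change over the 10 genes was 0.20, against -0.01 over all genes. Abundant genes as a whole had positive values in this comparison. Of the 122 genes that averaged 10 log2 CPM or more, 89.3% were positive, with a median of 0.21.

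The level of each gene was taken as the authors' average log2 CPM over the compared libraries. Between genes it was compared per kb of exon, by subtracting the log2 of the exon length in kb. The comparison table gives no spread between animals for a level, so neighbours in the order below were not tested against each other.

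The protein genes of high density lipoprotein stood at both ends of the range. APOA2, an abundant protein of that particle, was the highest of the 10 at 13.23 log2 CPM per kb, and stood at rank 3 of all genes on this scale. Its level before division by length was 12.16 log2 CPM per the authors' deposited table, or 4579 CPM. APOA1, the main structural protein of high density lipoprotein and an activator of LCAT, reached 7.54 log2 CPM per kb, at rank 360. APOM, a lipocalin that carries sphingosine phosphate on the same particle, had 6.44 log2 CPM per kb. APOA4, which in humans is made mainly by the intestine, was the lowest of the 10 at 3.06 log2 CPM per kb. From APOA2 to APOA4 the level per kb differed by 10.17 log2 units.

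The regulators of triglyceride clearance were far apart in level. APOC3, an inhibitor of lipoprotein lipase and of particle uptake, had 11.81 log2 CPM per kb, the next highest value after APOA2. APOE, the ligand by which remnant particles bind their receptors, followed at 11.10 log2 CPM per kb. APOH, a phospholipid-binding glycoprotein of plasma, had 10.70 log2 CPM per kb. With APOA2 these genes took ranks 3 to 42 of the table on the per kb scale. APOA5, which in humans and mice promotes the action of lipoprotein lipase, was at 7.62 log2 CPM per kb. That is 0.08 log2 units above APOA1, the smallest gap between neighbours in the order.

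The assembly genes moved down in rank once length was taken into account. APOB, the structural protein of very low density lipoprotein, had 10.90 log2 CPM per the authors' deposited table, at rank 64 before division by length. Its exons cover 14179 bases, and per kb its level was 7.07, at rank 476. MTTP went from rank 999 to rank 1748, at 4.96 log2 CPM per kb, and among the 10 only APOA4 was lower. Lengths join the exons of all annotated transcripts of a gene, so a gene with long minor transcripts reads lower per kb.

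**Figure D1:**
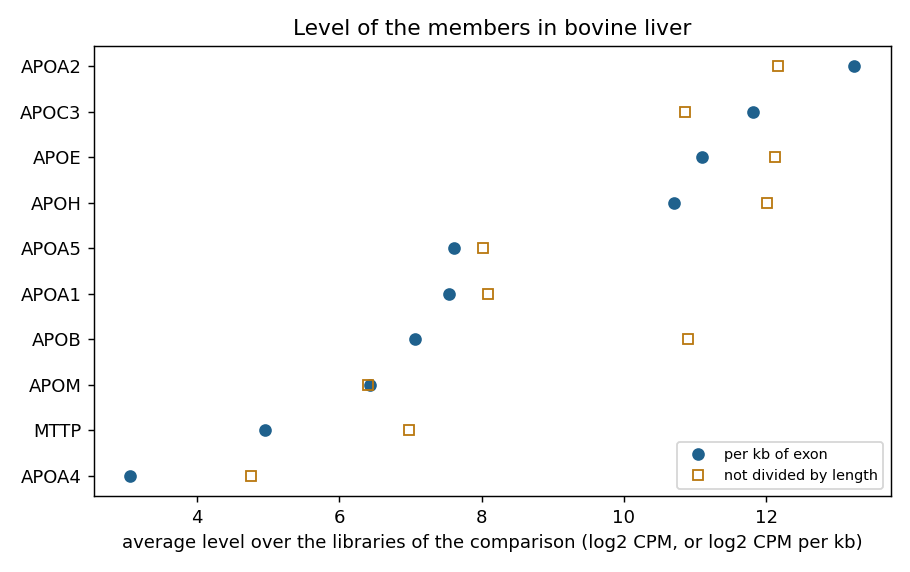
Average level of the 10 genes over the libraries of the comparison, as log2 CPM per kb of exon (filled circles) and as log2 CPM not divided by length (open squares), in order of the level per kb. APOA2 is highest at 13.23 and APOA4 lowest at 3.06 log2 CPM per kb, and APOB moves most with length, from 10.90 to 7.07.

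Among the regulators of triglyceride clearance, APOC3 and APOA5 had the largest positive fold changes with intervals above 0. APOC3 had a log2 fold change of 0.46 per the authors' deposited table (SE 0.15, approximate 95% interval 0.14 to 0.77), which is 1.37-fold. Its unadjusted p of 0.00645 was the smallest of the 10, and its adjusted p was 0.134 per the authors' deposited table. The functional opposite of APOC3 is APOA5, and both values were positive. APOA5 had the largest log2 fold change of the 10, 0.55 per the authors' deposited table (SE 0.21, interval 0.10 to 0.99), with an adjusted p of 0.214. Of all genes, 2.05% had a higher log2 fold change than APOA5. Neither gene passed over all genes.

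The remnant ligand APOE showed a small value. Its log2 fold change was 0.12 per the authors' deposited table (SE 0.13, interval -0.15 to 0.38), with an adjusted p of 0.733. As a change from the FREE level, the interval reaches from -9.68% to 30.1%. APOH, which also binds clotting factors and phospholipid surfaces, had 0.37 per the authors' deposited table (SE 0.13, interval 0.10 to 0.65, adjusted p = 0.167). This is 1.30-fold, with an unadjusted p of 0.0104. Of the 5 members with at least 10 log2 CPM, APOC3 and APOH were those with an unadjusted p under 0.05, against 34.4% of all genes at that level with such a p and a positive value.

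The genes of high density lipoprotein had values of both signs, and none of them passed. APOA1 was the negative member, with a log2 fold change of -0.19 per the authors' deposited table (SE 0.19, interval -0.59 to 0.22) and an adjusted p of 0.718. As a change from the FREE level, its interval reaches from -33.8% to 16.4%. APOA2 had a log2 fold change of 0.20 per the authors' deposited table (SE 0.15, interval -0.11 to 0.51, adjusted p = 0.566). APOM had 0.14 per the authors' deposited table (SE 0.08, interval -0.03 to 0.31, adjusted p = 0.443), with the smallest SE of the 10 genes. APOA4 had 0.52 (SE 0.28, adjusted p = 0.385) per the authors' deposited table, with the largest SE. The interval of APOA4 runs from -0.06 to 1.10, so a level 2.14 times that of FREE and one just below it both lie inside.

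The intervals of both assembly genes held 0. APOB had a log2 fold change of 0.20 per the authors' deposited table (SE 0.14, interval -0.09 to 0.50, adjusted p = 0.542). MTTP had 0.13 (SE 0.08, interval -0.05 to 0.31, adjusted p = 0.501) per the authors' deposited table. For MTTP the interval ends at 1.24-fold, and for APOB at 1.41-fold. As a change from the FREE level, the lower ends are -3.19% for MTTP and -6.20% for APOB. Rises or falls beyond these ends lie outside the approximate intervals, and changes within them could not be told from 0.

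**Figure D2:**
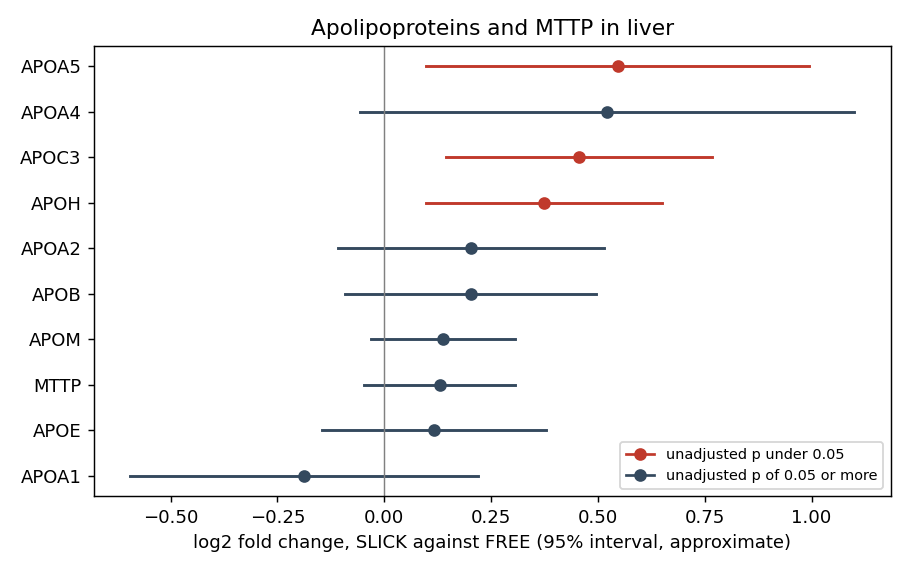
Log2 fold change of SLICK against FREE for the 10 genes, with approximate 95% intervals from the authors' F statistic; red marks an unadjusted p under 0.05. APOA5, APOC3 and APOH have intervals above 0, the other 7 hold 0, and APOA1 alone lies on the negative side at -0.19.

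The members were next set beside genes of like abundance. With at least 10 log2 CPM there were 5 members, all positive with a median of 0.20, against 89.3% positive and a median of 0.21 over all 122 genes of that level. With 5 to under 10 log2 CPM there were 4 members, 3 of them positive with a median of 0.13. Over the 3671 genes of this band, 61.9% were positive and the median was 0.04. APOA2, APOB and APOE lay below the median of the most abundant genes, and APOC3 and APOH above it. APOA5 and APOA4 lay above the upper quartile of their bands, which was 0.15 and 0.07, and APOC3 and APOH above theirs of 0.34. APOA1 lay below the lower quartile of its band, -0.05, and APOE below that of its own, 0.13. These level bands were chosen after the values were seen.

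**Figure D3:**
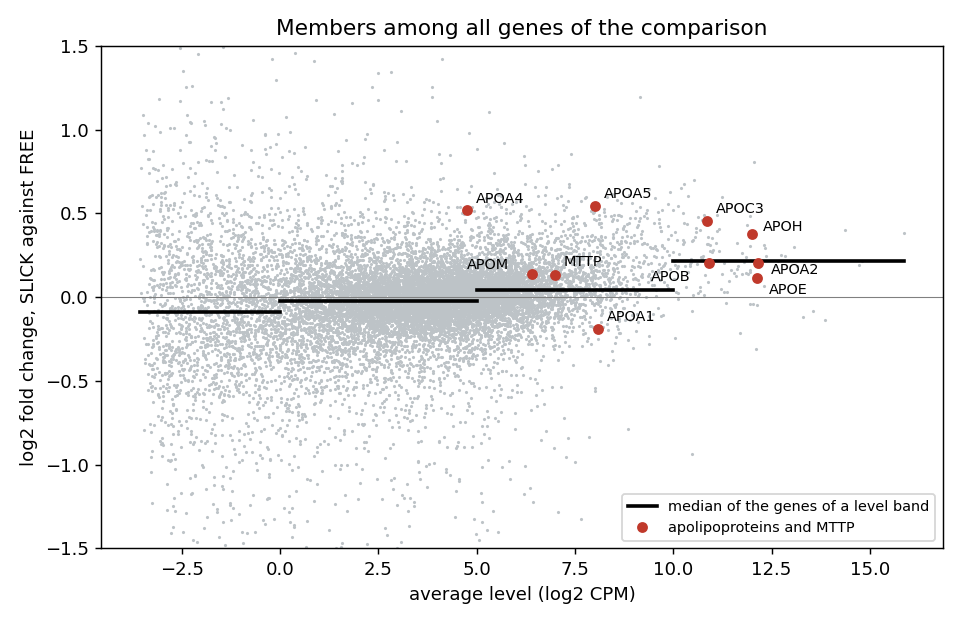
Log2 fold change of SLICK against FREE by average level for all genes (grey), with the 10 members in red and black bars at the median of each level band; 91 genes beyond 1.5 in either direction are not drawn. The medians run from -0.09 under 0 log2 CPM to 0.21 at 10 log2 CPM and over, and the abundant members scatter around the last bar.

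Of the 10 genes, 4 lie side by side on chromosome 15 of ARS-UCD1.2, within 61.5 kb, and the other 6 are on 6 further chromosomes. APOA5 spans 27443936 to 27446075 on the - strand (ENSBTAG00000019764), and APOA4 spans 27475732 to 27489136 on the same strand (ENSBTAG00000019770). APOC3 lies on the + strand from 27486034 to 27488618 (ENSBTAG00000012398), wholly within introns of APOA4, with 0 exon bases shared. APOA1 follows on the - strand from 27490875 to 27505442 (ENSBTAG00000002258). A further gene without a name, ENSBTAG00000049816, lies on the + strand within APOA4. All 576 of its exon bases overlap exons of APOA4, which is 17.8% of the APOA4 exon length. How strand was used to count the TruSeq libraries is not stated in the sources used here, so reads of APOA4 and of that gene may not be told apart.

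APOA5, APOA4 and APOC3 had log2 fold changes of 0.46 to 0.55 per the authors' deposited table, while APOA1, 2.26 kb beyond the end of APOC3, had -0.19. The intervals of APOA1 and of the other 3 overlap, and the difference between them was not tested, since it needs the values of single animals. On the APOA5 side the next gene is ZPR1, a zinc finger protein gene, with a log2 fold change of 0.45 per the authors' deposited table (SE 0.12, interval 0.21 to 0.70). Its unadjusted p was 0.000890 and its adjusted p was 0.0747 per the authors' deposited table, both smaller than those of any of the 10 genes. On the APOA1 side lies SIK3, a salt-inducible kinase gene, with 0.11 per the authors' deposited table (interval -0.03 to 0.25, adjusted p = 0.443).

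**Figure D4:**
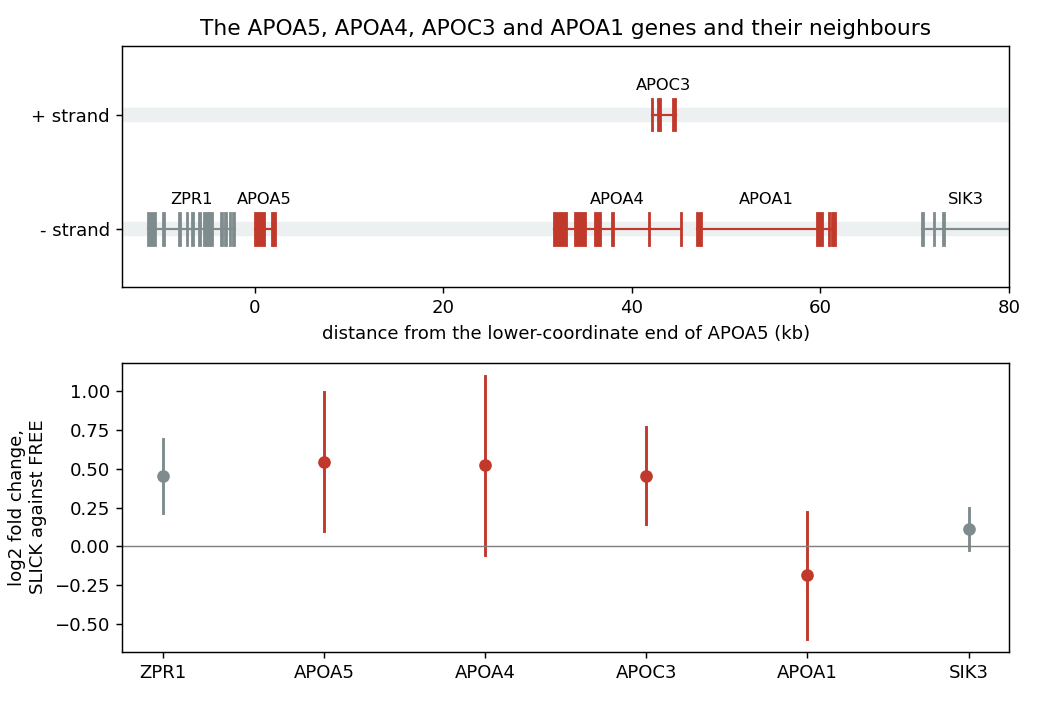
Top, exons (boxes) of APOA5, APOA4, APOC3 and APOA1 and of the flanking ZPR1 and SIK3 by strand, against distance in kb from the lower-coordinate end of APOA5 (SIK3 runs on beyond the frame); bottom, their log2 fold changes with approximate 95% intervals. ZPR1, APOA5, APOA4 and APOC3 lie between 0.45 and 0.55, and APOA1 at -0.19.

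The other members lie apart. APOA2 is on chromosome 3 from 8282869 to 8284122 on the + strand (ENSBTAG00000009212). APOB is on chromosome 11 from 77885935 to 77927967 on the + strand (ENSBTAG00000008505), with 29 joined exons. MTTP is on chromosome 6 from 25005876 to 25062589 on the - strand (ENSBTAG00000011944). APOE is on chromosome 18 from 52637233 to 52640572 on the + strand (ENSBTAG00000010123). APOH is on chromosome 19 from 62601237 to 62624974 on the - strand (ENSBTAG00000001915), and APOM is on chromosome 23 from 27641580 to 27643685 on the - strand (ENSBTAG00000008833).

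APOE shares its stretch of chromosome 18 with APOC4 and APOC2, which activates lipoprotein lipase. Their log2 fold changes per the authors' deposited table were 0.08 for APOC4 and 0.13 for APOC2, beside 0.12 for APOE. All 3 intervals hold 0. Over the other apolipoproteins listed, 9 genes under 8 symbols were measured, of which 6 were positive and 0 passed the authors' adjusted p or an unadjusted p under 0.05. Their median was 0.07. By p the list was led by CLU, or apolipoprotein J (log2 fold change 0.14 per the authors' deposited table), APOC2 and the mitochondrial APOO (-0.11 there).

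Genes that assemble and secrete lipoproteins with MTTP had a median log2 fold change of 0.09 over 11 genes, of which 9 were positive. None passed the authors' adjusted p, and 3 had an unadjusted p under 0.05, all positive. For this list and those below, the shares over all genes are 48.2% positive and, at such a p, 7.22% higher and 8.79% lower. The share higher at such a p was 4.31% at 0 to under 5 log2 CPM and 15.2% at 5 to under 10. No list was tested against genes of like level. MIA2, a cargo receptor at the exit sites of the endoplasmic reticulum, had a log2 fold change of 0.33 per the authors' deposited table (interval 0.17 to 0.49, adjusted p = 0.0574). The phospholipase homologue PLA2G12B had 0.18 and the sorting receptor SORT1 had 0.33 per the authors' deposited table, with adjusted p of 0.177 and 0.272. P4HB, the partner subunit of MTTP, had 0.06 per the authors' deposited table (interval -0.15 to 0.27), beside 0.13 for MTTP itself.

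Lipases and remodelling proteins of plasma were measured for 12 of 13 listed genes, with a median of 0.15. None passed the authors' adjusted p. At an unadjusted p under 0.05 there were 5 positive genes and 1 negative gene, against 7.22% of all genes higher and 8.79% lower. The hepatic lipase gene LIPC had a log2 fold change of 0.50 (interval 0.22 to 0.78, adjusted p = 0.0876) per the authors' deposited table. LCAT, which APOA1 activates and which esterifies cholesterol on high density lipoprotein, had 0.36 per the authors' deposited table (adjusted p = 0.116). Lipoprotein lipase (LPL), the enzyme that APOC3 inhibits, had -0.72 per the authors' deposited table (interval -1.14 to -0.31, adjusted p = 0.0887).

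Receptors and their regulators held the 1 gene of the 7 pathway lists that passed, against 0.501% of all genes (0.410% lower). The lists held 9 to 24 measured genes each, and none was tested against that share. LRP8, a receptor that binds APOE, fell by 2.24 log2 units per the authors' deposited table (interval -3.08 to -1.39, adjusted p = 0.0332). Its level was low, at 0.44 log2 CPM per the authors' deposited table, against 9.64 for LRP1. The next smallest p of the list were those of SORL1 (0.24) and LRP1 (0.20) per the authors' deposited table, with adjusted p of 0.347 and 0.353. The list of 12 measured genes had a median of -0.04.

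Sterol export genes, among them ABCA1, which loads cholesterol onto APOA1, had a median of -0.11 over 10 genes, 8 of them negative. None passed the authors' adjusted p, and 1 had an unadjusted p under 0.05. That gene was the oxysterol receptor NR1H3, with a log2 fold change of 0.18 per the authors' deposited table (adjusted p = 0.294). The sterol esterifying enzyme SOAT1 had -0.22 and the biliary sterol transporter subunit ABCG8 had -0.42 per the authors' deposited table. ABCA1 had -0.04 (interval -0.33 to 0.24) per the authors' deposited table.

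Glycerolipid synthesis and lipid droplet genes had a median of 0.09 over 24 measured genes, 18 of them positive. None passed the authors' adjusted p, and at an unadjusted p under 0.05 there were 4 positive genes and 1 negative gene. The droplet coat gene PLIN5 had a log2 fold change of 0.68 per the authors' deposited table (adjusted p = 0.112). PEMT, which makes phosphatidylcholine for very low density lipoprotein, had 0.36 per the authors' deposited table (adjusted p = 0.125). PLIN2, another coat gene, had -0.29 per the authors' deposited table (adjusted p = 0.154).

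Transcription factors known to act on apolipoprotein genes were evenly divided, 12 positive and 12 negative of 24 measured, with a median of 0.01. None passed the authors' adjusted p. At an unadjusted p under 0.05 there were 4 positive and 2 negative genes. PPARA, the fatty acid receptor, had a log2 fold change of 0.30 (adjusted p = 0.196) per the authors' deposited table. CREB3L3, which in mice induces APOA4 and APOA5, had 0.54 (adjusted p = 0.233) per the authors' deposited table. The inflammatory factor CEBPB had -0.42 (adjusted p = 0.260) per the authors' deposited table. HNF4A, a main activator of APOC3, APOB and MTTP, had 0.15 per the authors' deposited table (interval -0.03 to 0.33, adjusted p = 0.419).

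**Figure D5:**
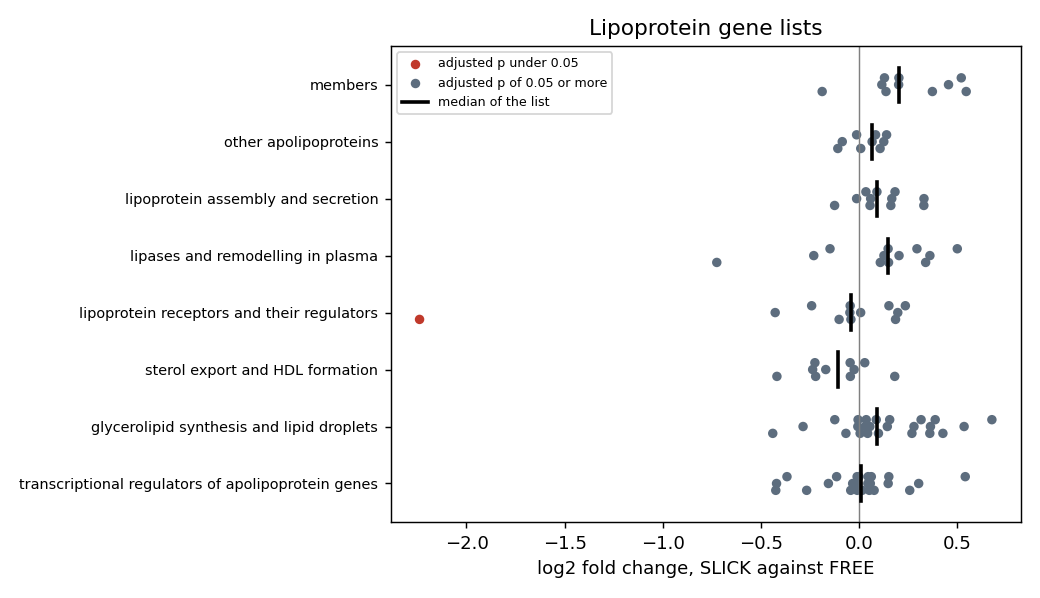
Log2 fold changes of SLICK against FREE for the members and for 7 lists of lipoprotein genes; each point is 1 gene, black bars are list medians, and red marks an adjusted p under 0.05. The members have the highest median, 0.20, the sterol export list the lowest, -0.11, and LRP8 at -2.24 is the red point. The lists differ in level, with a median of 9.48 log2 CPM for the members and 3.79 to 6.46 for the 7 lists. Median fold changes over all genes rise with level, to 0.21 at 10 log2 CPM and over.

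Other liver cell types and processes were followed beside the apolipoproteins with marker lists. Hepatocyte secretory proteins had a median log2 fold change of 0.16 over 16 genes, 11 positive, beside 0.20 for the members. At 10 log2 CPM and over, 89.3% of all genes were positive and the median was 0.21. The median level of the hepatocyte list was 12.5 log2 CPM. Within that list FETUB had the smallest p, with -0.79 per the authors' deposited table (adjusted p = 0.0645), and ALB had 0.38 (adjusted p = 0.290). Bile duct markers were negative in 8 of 8 measured genes, with a median of -0.75 and levels of -0.47 to 4.26 log2 CPM, CLDN4 having the smallest p (-1.67 per the authors' deposited table, adjusted p = 0.0599). Of all genes with 0 to under 5 log2 CPM, 43.4% were positive. Interferon response genes were negative in 9 of 9, with a median of -1.71 and levels of 1.45 to 7.21 log2 CPM. By the authors' adjusted p 3 of them fell, among them HERC6 (-2.46 per the authors' deposited table), against 0.410% of all genes. The marker lists took in processes already said to move in these data, so these counts are no independent evidence. The part of the bile duct or interferon shift in the values of the apolipoproteins was not tested.

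Macrophage markers had a median of 0.13 over 10 genes, 7 of them positive. TREM2, with the smallest p, fell by 2.14 log2 units per the authors' deposited table (adjusted p = 0.0486). It was the 1 gene of the list that passed, against 0.501% of all genes. Its level was 1.18 log2 CPM, against a median of 7.52 for the list. Endothelial markers had a median of 0.12 over 8 genes (smallest p TEK, 0.12 per the authors' deposited table), stellate cell markers -0.16 over 8 (LUM, -0.54 there) and T and NK cell markers 0.09 over 8 (CD3D, 0.14 there). B and plasma cell markers had -0.05 over 6 (JCHAIN, -0.35 per the authors' deposited table), neutrophil markers -0.43 over 4 (S100A12, -1.14 there) and adipocyte markers 0.19 over 3 (CIDEA, 0.19 there). Acute phase proteins had a median of -0.12 over 9 genes, 7 of them negative and none with an unadjusted p under 0.05 (LBP, -0.41 per the authors' deposited table). This list shares genes with the hepatocyte list, FGB and FGG among them, so their medians are not independent. Its levels ran from 3.16 to 13.9 log2 CPM, and 89.3% of all genes at 10 or over were positive. Of 8 enterocyte markers, 1 was in the comparison table, VIL1 (-0.74 per the authors' deposited table). APOBEC1, the enzyme that edits APOB transcripts, was not in it.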

How the data were processed

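Liver RNA was sequenced from TruSeq (18 samples) and SMARTer (16 samples) libraries, per the labels' protocols. Tools and build named by the submitters' processing notes, with no role or order, are edgeR, featureCounts, Subread, HISAT2 2.1.0 and ARS-UCD1.2. The header of the SMARTer table gives featureCounts 1.6.2, Ensembl release 100 and a mapping quality of at least 10.

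For each gene the authors deposited the p-value of a test before and after adjustment, its F score, the fold change in log2 units and the mean level in log2 CPM, per the file headers. Of 14246 rows, 85 repeat a gene and were dropped. Another deposited value is gene length in bases. The 4 tables hold 70 library columns under animal numbers or codes found in no label, and these were not used, so depth is unknown here. The comparison table names 18 animals, of which 17 are also in the TruSeq count table.

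The planned count fits were therefore replaced by the deposited p-values, and S2 against S1 was not analysed. The planned promoter and protein comparisons were not made, because no sequences were used here. The SE is the size of the log2 fold change over the square root of F. A run on simulated normal values took F as the square of t, which fixes the outcome beforehand. It checked the arithmetic only, and the SE was not tested on simulated counts. Exons were joined from the deposited coordinates. Work was done in Python 3.11.15 with scipy 1.17.1, pandas 2.3.3, numpy 2.4.6 and matplotlib 3.10.9.

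The members and gene lists were chosen with earlier results of these data known. Genes named were the 10 members, any pathway gene past the threshold, the 3 smallest p of each pathway list, the smallest p of each marker list, and the 2 genes that flank the cluster. APOC4, P4HB, ABCA1, HNF4A, ALB and APOBEC1 were named for their tie to a member or to liver after their values were seen. Some genes of the lists are not reported here. The labels carry no animal identifier, so p-values measure the spread between these samples.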

Additional observations from a re-analysis of the deposited data

How the results depend on the processing

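With the adjustment recomputed over all genes of the table or over genes of at least 0 log2 CPM, 0 of the 10 members passed 0.05. Over genes of at least 5 log2 CPM, which leaves out APOA4, 0 of 9 passed, and 0 of 10 passed an adjusted p of 0.10 as deposited. At an unadjusted p under 0.05 there were 3. Over these adjustments the adjusted p of APOC3 ran from 0.0940 to 0.128, that of APOH from 0.112 to 0.160 and that of APOA5 from 0.142 to 0.205. Subtracting the median of all genes or of genes with at least 5 log2 CPM left the direction of all 10. Subtracting the median of genes with at least 10 log2 CPM (0.21), an alternative chosen after seeing the data, turned the median of the members to -0.0108. It also turned APOA2 to -0.0102, APOB to -0.0114, APOE to -0.0971, APOM to -0.0759 and MTTP to -0.0836. By construction it sets the typical gene of at least 10 log2 CPM to 0, a level that APOM and MTTP do not reach. Exon lengths of both count tables were the same for all 10. Among the pathway genes LRP8 was the 1 called as deposited, over all genes and over genes of at least 0 log2 CPM. Its adjusted p was 0.0436 in the last of these. The adjustment over genes of at least 5 log2 CPM, which leaves out LRP8, was not applied to the pathway lists. Nor was an adjusted p of 0.10. Fits of the counts, DESeq2 and leaving out single libraries were not run, since no library could be matched to a sample, so whether 1 animal carries a value is not known. No paired analysis was possible because the library columns carry no replicate number. How precisely the difference between SLICK and FREE is measured for a member is known only from the authors' F statistic and fold change.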
